A study of Mus musculus with 2 samples.

Results

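Mir191 and Mir425 are neighbouring miRNA genes on the plus strand of mouse chromosome 9, and 2 of the 2202 miRNA genes that were counted in the mouse heart. They were picked by name and position, with their counts on their own strand already known, so the levels below are a description. Libraries were made from small RNA under 30 nucleotides from heart tissue of 2 male B6CASTF1/J mice, a first-generation cross of C57BL/6J with the wild-derived CAST strain, at an age of 25 days and with no treatment named. Both libraries form 1 group, numbered as biological replicates 1 and 2, and the study has no contrast. The animals have separate numbers but 1 donor identifier, so the spread between the libraries may be technical. The sample descriptions attach months to the age in place of days.

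A miRNA is cut from a hairpin in a longer transcript by Drosha and then Dicer, which leaves a duplex of a 5p and a 3p arm. The strand that enters an Argonaute protein recognises messenger RNAs mainly through its seed, bases 2 to 8. Genes that lie close together on 1 strand are often cut from a shared primary transcript. miR-191 is found in many tissues and has been used as a reference miRNA in expression assays, and in mouse erythroblasts its fall is known to be needed for the loss of the nucleus. miR-425 is known in human cells as a negative regulator of the atrial natriuretic peptide gene NPPA, whose product is made by heart muscle.

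The mature arms are shown first because they set what each gene can be counted as and what it can recognise. They are from RefSeq (GRCm38.p6) and written 5′ to 3′ with the seed in capitals.
mmu-miR-191-5p: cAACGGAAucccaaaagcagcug
mmu-miR-191-3p: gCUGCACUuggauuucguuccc
mmu-miR-425-5p: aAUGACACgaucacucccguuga
mmu-miR-425-3p: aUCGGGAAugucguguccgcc
mmu-miR-489-3p: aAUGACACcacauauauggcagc
The neighbouring genes share no seed with each other. Of 1738 listed mature mouse sequences, mmu-miR-489-3p alone had the seed of an arm of either gene, that of mmu-miR-425-5p, and it is shown for that reason. Its gene, Mir489 on chromosome 6, had 0 counts in both hearts, which allows a level of up to 0.608 in replicate 1 and 0.574 in replicate 2, in counts per 1000000 assigned reads (CPM). The seeds of mmu-miR-191-5p, mmu-miR-191-3p and mmu-miR-425-3p were found in no other listed gene. A seed held by a single gene was common, since 1182 of the 1738 sequences (68.0%) had one.

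The hairpins show where the arms lie. Both are printed with the mature arms in capitals, Mir191 from chr9:108568319-108568392 and Mir425 from chr9:108568777-108568861, plus strand of GRCm38.p6.
Mir191: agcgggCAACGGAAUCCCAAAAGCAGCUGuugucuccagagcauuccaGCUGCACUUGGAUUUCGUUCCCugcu
Mir425: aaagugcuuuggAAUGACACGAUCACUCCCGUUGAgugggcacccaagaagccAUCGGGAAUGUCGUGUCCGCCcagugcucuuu
In Mir191 the 5p arm takes bases 7 to 29 and the 3p arm bases 49 to 70 of 74. In Mir425 they take bases 13 to 35 and 54 to 74 of 85. The deposited counts are per gene, so the share of each arm was not measured. GC content was nearly the same in both hairpins, at 54.1%, against a median of 51.4% over the 356 detected genes, which are those with at least 10 counts in both libraries. The predicted minimum free energy was -35.0 kcal/mol for Mir191 and -31.7 kcal/mol for Mir425. Per base this was -0.473 for Mir191, -0.373 for Mir425 and -0.437 for the median detected hairpin, so Mir191 lay on the more stable side and Mir425 on the less stable side of that median.

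Neither sequence has a close copy among the other miRNA genes. The longest run that Mir191 shared with a miRNA gene at another locus was 12 bases, and that of Mir425 was 13 bases. Between the hairpins of Mir191 and Mir425 the longest shared run was 5 bases. Reads placed at several loci were kept out of every gene's count, 41.6% of reads in replicate 1 and 37.4% in replicate 2. Genes that share runs of 20 bases with another locus can be listed too low for that reason, and Mir191 and Mir425 are not among them. The runs were sought among the hairpins of listed miRNA genes only, and the rest of the genome was not searched.

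Annotations differ on the host of the pair. In GENCODE M21, the annotation the counts were made with, both hairpins lie in the long noncoding RNA gene 4833445I07Rik, on chromosome 9 from 108567533 to 108569174 on the plus strand of mm10. Its transcript 4833445I07Rik-201 is 1 exon that holds both hairpins. In transcript 4833445I07Rik-202, Mir191 lies in the intron of 303 bases from 108568181 to 108568483, and Mir425 begins just past the transcript's end, with 2 bases between them. In GENCODE, Dalrd3, a protein gene known for a part in tRNA methylation, begins at 108569886, with 1024 bases between it and Mir425, and none of the exons of its 9 transcripts touches either hairpin. RefSeq starts Dalrd3 at 108567484, so that both hairpins fall within its span. The hairpins themselves are 384 bases apart. Upstream lies Ndufaf3, on the minus strand, which helps to assemble mitochondrial complex I. The map of the locus shows these spans to scale.

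**Figure D1:**
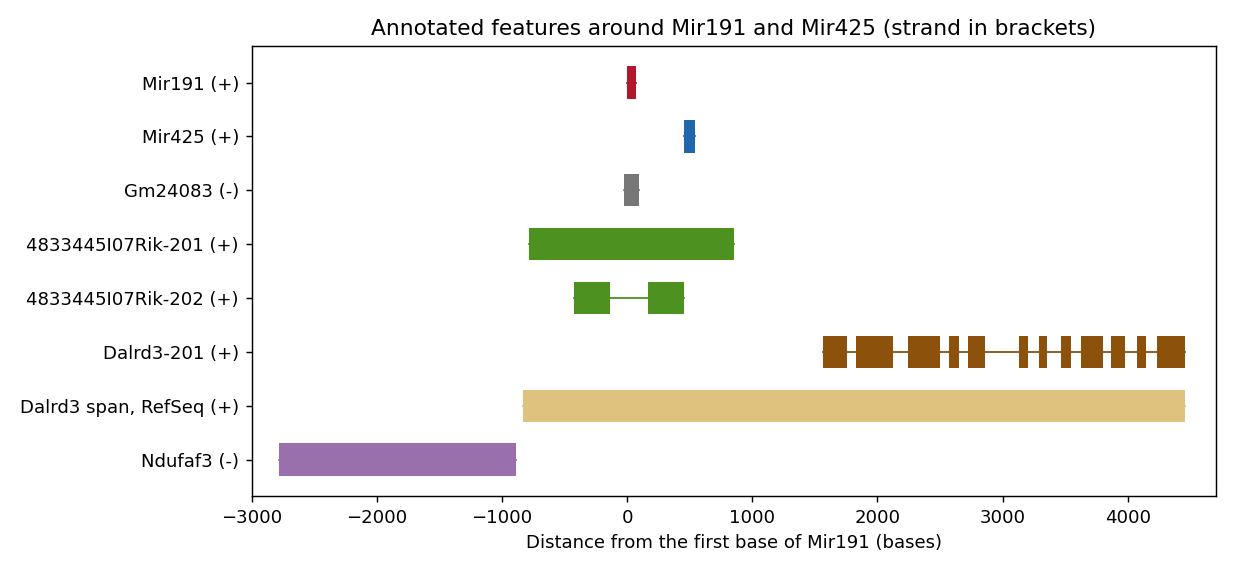
Annotated features around Mir191 and Mir425, by distance in bases from the first base of Mir191, with 1 row per gene or transcript, boxes for exons or whole spans, thin lines for introns, and the strand in brackets. Both hairpins lie in the GENCODE transcript 4833445I07Rik-201 and upstream of the GENCODE transcript of Dalrd3, while the RefSeq span of Dalrd3 covers them.

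The sequencing depth was close in the libraries, 13210462 reads in replicate 1 and 14363882 in replicate 2, and 4930853 and 5229819 of these fell on the annotated strand of a miRNA gene. A single count was worth 0.203 CPM in the first library and 0.191 CPM in the other. The heart label was checked with 8 listed heart muscle genes, of which 5 were detected. The myosin-hosted Mir208a, Mir208b and Mir499 had mean levels of up to 2846 CPM. Mir1a-1 and Mir1a-2 were at 2.57 and 37.8 CPM, and Mir133a-1, Mir133a-2 and Mir133b had fewer than 10 counts in at least 1 library. The Mir1a and Mir133 genes named here each share a run of 20 bases with another gene. Of 6 neuronal genes listed as a contrast none was detected and 4 had 0 counts in both libraries, but all 6 share 20 bases with another locus. In bulk tissue, fewer cells of a type and less RNA per cell cannot be told apart.

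Among the assigned counts, Mir191 was 1 of the leading miRNA genes of both hearts. It had 54920 counts in replicate 1 and 59583 in replicate 2. These counts correspond to 11138 CPM in replicate 1 (exact Clopper-Pearson 95% interval 11046 to 11231) and 11393 CPM in replicate 2 (11302 to 11484), and the intervals cover counting error only. The mean was 11265 ± 180 CPM (SD, n = 2), or 1.13 ± 0.0180% of assigned counts. Mir191 was ranked 16th of the listed genes by its mean, at rank 16 in replicate 1 and rank 17 in replicate 2. Reads placed at several loci, 41.6% and 37.4% of all reads, are outside these totals. Genes with shared runs, the Mir1a and Mir133 genes among them, may therefore rank too low against Mir191. Its SD was 1.60% of its mean.

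Mir425 was more than an order of magnitude lower and less even between the hearts. It had 3345 counts in replicate 1 and 4988 in replicate 2. Its levels were 678 CPM in replicate 1 (exact 95% interval 656 to 702) and 954 CPM in replicate 2 (927 to 981). The mean was 816 ± 195 CPM (SD, n = 2), or 0.0816 ± 0.0195% of assigned counts, with an SD of 23.9% of the mean. By mean level it ranked 78th, at rank 80 in replicate 1 and rank 74 in replicate 2, with the same limit as for Mir191. Together the neighbours held 1.18% of assigned counts in replicate 1 and 1.23% in replicate 2, nearly all of it from Mir191.

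**Figure D2:**
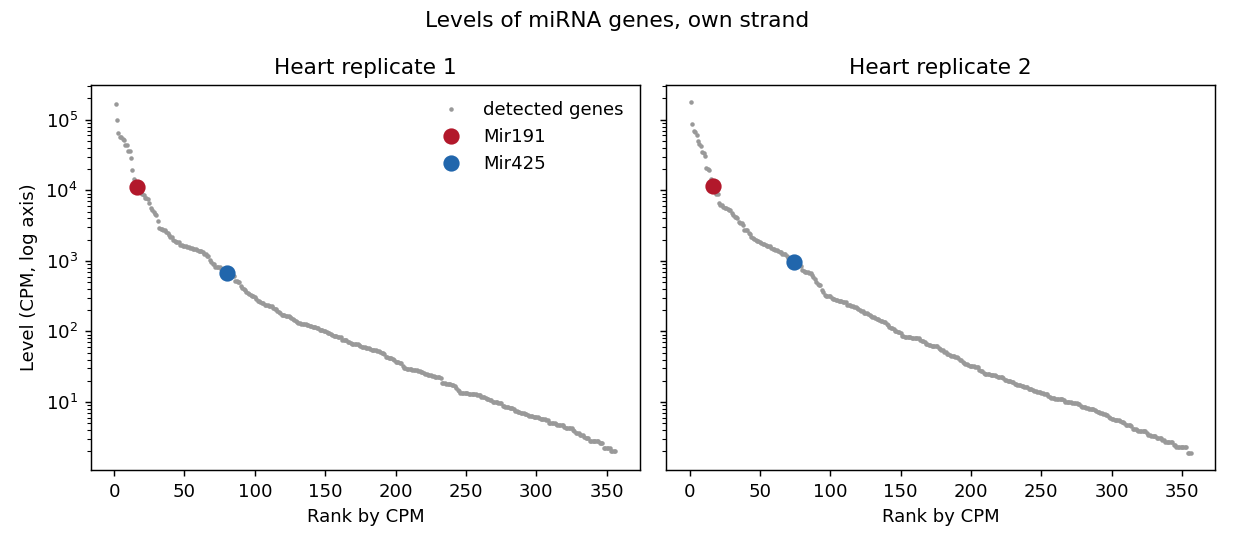
Level of each detected miRNA gene (CPM, log axis) against its rank, 1 panel per heart library, with small grey points for the detected genes and large points for Mir191 and Mir425. Mir191 sits on the steep upper part of the curve at 11138 and 11393 CPM, and Mir425 on the shallower part at 678 and 954 CPM.

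The genes next to Mir191 in the order of mean levels did not stand apart from it beyond their own spread. Mir149, ranked 15th, was at 9060 CPM in replicate 1 and 14467 CPM in replicate 2. Mir451a, a miRNA of red blood cells and ranked 17th, was at 19491 CPM in replicate 1 and 986 CPM in replicate 2. Both neighbours in the order thus lay above Mir191 in 1 library and below it in the other. By the distance of log2 levels over the 2 libraries, the genes most like Mir191 were Mir30a at 0.29, Mir149 at 0.46 and Mir652 at 0.47. Mir30a, of the broadly expressed miR-30 family, had 46978 and 52540 counts, and the X-linked Mir652 had 44152 and 46798.

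Around Mir425 the levels lay closer together. Mir411 of the imprinted cluster on chromosome 12, ranked 77th, was at 892 ± 97.5 CPM, and Mirlet7a-1 of the let-7 family, ranked 79th, was at 760 ± 160 CPM (SD, n = 2). Mir425 differed from both by less than its own SD. The genes most like it by the distance of log2 levels were Mirlet7a-1 at 0.14, Mir30c-2 at 0.18 and Mir411 at 0.28. Mir30c-2 had 3285 and 4398 counts, both below those of Mir425. All 3 share 20 bases with another locus, so their own counts may be too low. Mir425 shares no such run with another listed miRNA gene.

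Which strand is counted decides whether Mir191 is seen at all. GENCODE M21 lists a further miRNA gene, Gm24083, on the minus strand from 108568295 to 108568414, a model of 120 bases that covers all 74 bases of Mir191 with 24 more on one side and 22 on the other. In the column for the gene's own strand Mir191 had 54920 and 59583 counts, and Gm24083 had 0 in both libraries, so its level is at most 0.608 CPM and 0.574 CPM. In the column for the opposite strand the same 54920 and 59583 reads stand beside Gm24083, and Mir191 has 0. In the unstranded column both genes are at 0, because reads over a pair of genes are tallied as ambiguous there. Mir191 reads made up 4.09% of the 1342888 ambiguous reads of replicate 1 and 4.14% of the 1438359 of replicate 2, the fourth and the third largest contribution.

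Mir425 has no such partner. Its unstranded and own-strand counts were equal, at 3345 in replicate 1 and 4988 in replicate 2, and its opposite-strand count was 0 in both. Over the 328 detected genes that overlap no other miRNA gene on the opposite strand, opposite-strand reads came to 93 in replicate 1 and 110 in replicate 2, found in 10 and 19 of these genes. The other 28 detected genes do overlap one, and for 26 of them, Mir191 included, the unstranded count was 0 in both libraries. For 16 of the 28, again with Mir191, the partner had 0 counts on its own strand in both libraries. Without strand, the locus would thus be represented by Mir425 alone.

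Between the hearts, Mir191 was nearly even while Mir425 was higher in replicate 2. The level of Mir191 in replicate 2 was 1.02 times that in replicate 1 (exact conditional binomial 95% interval 1.01 to 1.03), a log2 ratio of 0.03. That of Mir425 was 1.41 times (1.35 to 1.47), a log2 ratio of 0.49. Both intervals left out 1 on the higher side, as did those of 33.4% of the 356 detected genes. On the lower side 30.9% did, and in either direction 64.3%, so nothing is read from these calls. That last share depended on the count minimum and was 42.3% of 594 genes with at least 1 count and 81.1% of 222 genes with at least 100. The intervals compare 2 libraries and carry no spread between animals. The direction for Mir191 depended on the scaling: its ratio was 0.990 (0.979 to 1.00) with TMM factors and 0.998 (0.986 to 1.01) per all reads, and both of these intervals held 1. For Mir425 the ratio stayed between 1.36 and 1.49 over the 6 other scalings tried.

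The spread over all genes gives the scale for these ratios. The SD of the log2 ratio over detected genes was 0.86, larger than the log2 ratio of either gene. In absolute value 18 of the 356 genes had a smaller log2 ratio than Mir191, and 196 had a smaller one than Mir425. Over the other scalings 0 to 56 genes were more even than Mir191, and 182 to 211 were more even than Mir425. The 56 and the 211 came with DESeq2 size factors from all genes, which were 1 in both libraries and left the counts unscaled. With such factors from detected genes only, 5 genes were more even than Mir191. Among the 29 other genes within 4-fold of the level of Mir191, only Mir652 was more even, and 0 to 3 genes were under the other scalings. Among the 81 other genes within 4-fold of the level of Mir425, 49 were more even, and 22 had a higher ratio of replicate 2 to replicate 1. Mir191 was thus among the more even genes of its level in these libraries, and Mir425 was near the middle.

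**Figure D3:**
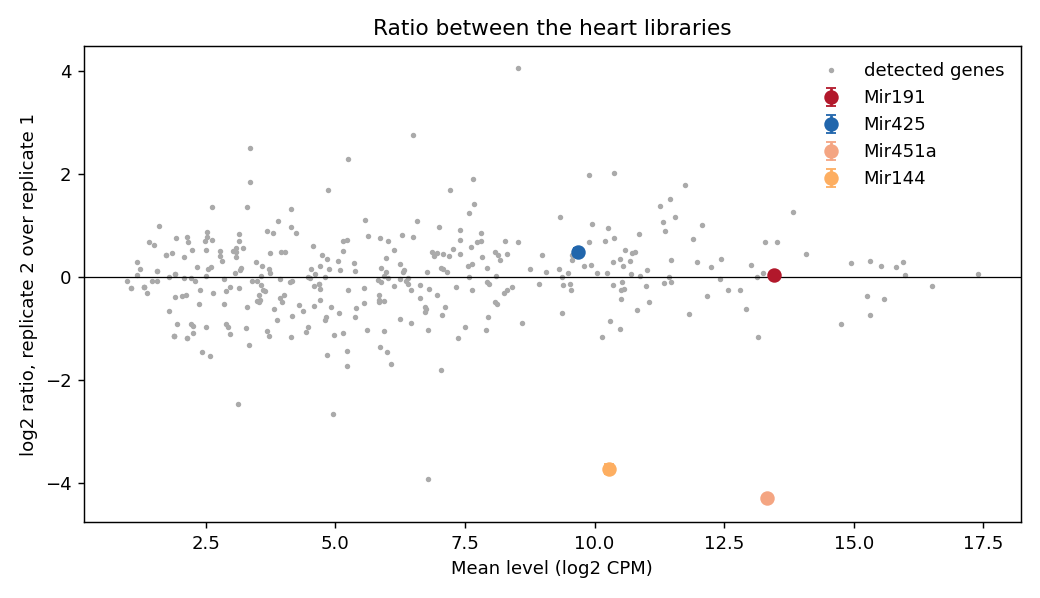
The log2 ratio of replicate 2 over replicate 1 against the mean level (log2 CPM) of each detected miRNA gene, with large points for Mir191, Mir425 and the red blood cell genes Mir451a and Mir144, and exact 95% intervals that are smaller than most of these points. Mir191 lies at 0.03 and Mir425 at 0.49, while Mir451a and Mir144 lie far below 0.

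Of the 3 genes listed for red blood cells, Mir451a and Mir144 moved the other way and by much more. Mir451a had 96105 counts in replicate 1 and 5159 in replicate 2, and Mir144 had 11445 and 914. The third gene of that list, Mir486, which heart muscle also expresses, was 1.61 times higher in replicate 2. The 3 genes together held 2.25% of assigned counts in replicate 1 and 0.233% in replicate 2. With Mir451a and Mir144 left out of the library totals, the ratio was 1.00 for Mir191 (0.990 to 1.01) and 1.38 for Mir425 (1.32 to 1.44). This changes every gene by 1 common factor, and the interval for Mir191 then held 1. The part of red blood cells in the count of Mir425 was not tested.

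Lists of other cell types differed between the libraries in both directions. The 2 endothelial genes held 5.64% of assigned counts in replicate 1 and 6.94% in replicate 2, nearly all from Mir126a, and Mir126b had 3 counts in each. The 5 smooth muscle and fibroblast genes held 3.19% and 4.06%, with 3 higher, none lower, and Mir199a-1 at 0. Of the 8 heart muscle genes, Mir208a was higher in replicate 2, with 6713 and 18629 counts. Mir499 was lower per assigned reads, at 0.940 times (0.919 to 0.962), though its counts of 14464 and 14425 were nearly equal. The heart muscle list held 0.453% and 0.656%. The 4 leukocyte genes held 0.479% and 0.513%, with Mir150 and Mir223 higher and Mir142 lower, at 2478 and 1418 counts. Mir155, with the highest mean level of these 4, was nearly even, at 0.994 times (0.971 to 1.02). The liver gene Mir122 was lower in replicate 2, with 126 and 84 counts. The neuronal genes held 0.000203% and 0.000115%. Higher and lower here mean that the exact 95% interval of the ratio left out 1. Of all detected genes 33.4% were higher and 30.9% lower in this sense, so nothing is read from these calls. The part of these cell types in the higher count of Mir425 was not tested.

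The balance within the pair can be read without any scaling of the libraries, since both counts come from the same library. Mir191 had 16.4 times the counts of Mir425 in replicate 1 (exact 95% interval 15.9 to 17.0). In replicate 2 it had 11.9 times (11.6 to 12.3), and these intervals cover counting error only. Mir191 reads were 94.3% of the pair in replicate 1 and 92.3% in replicate 2. The ratio was 1.37 times larger in replicate 1. It is a ratio of reads, and small-RNA libraries take up some sequences more readily than others, so it does not give the ratio of molecules.

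Other neighbouring genes were set beside the pair. There were 102 other pairs of adjacent detected genes on 1 strand within 10 kb, and their counts differed by a median of 6.09-fold, against 14.0-fold for Mir191 and Mir425 (geometric mean of the libraries). In 71 of the 102 the difference was smaller. A gene with a neighbour on each side enters more than 1 pair, so the pairs are not separate comparisons. Without pairs that hold a gene with a shared run, the difference was smaller in 48 of 64. The change of a pair's ratio between the libraries had a median of 1.45-fold, and 57 of the 102 pairs changed by more than the 1.37-fold of Mir191 and Mir425. Both the imbalance of the pair and its change thus lay inside the range of other neighbours. Of the 102 pairs, 43 are on chromosome 12, where the imprinted cluster lies, and without them the difference was smaller in 36 of 59.

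Pairs at nearly the same spacing behaved in different ways. The starts of Mir191 and Mir425 are 458 bases apart. Mir296 and Mir298, of the imprinted Gnas region on chromosome 2, are 457 bases apart, with 260 and 419 counts in replicate 1 and 162 and 1672 in replicate 2. Mirlet7e and Mir125a on chromosome 17, 460 bases apart, had 37488 and 38235 counts in replicate 1 and 46457 and 64589 in replicate 2. Mir411 and Mir299a on chromosome 12, 463 bases apart, had 4056 and 376 counts in replicate 1 and stayed about 11.3-fold apart over both libraries. The pair of Mir296 and Mir298 changed its ratio 6.40-fold between the hearts, that of Mirlet7e and Mir125a 1.36-fold, and that of Mir411 and Mir299a 1.10-fold.

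**Figure D4:**
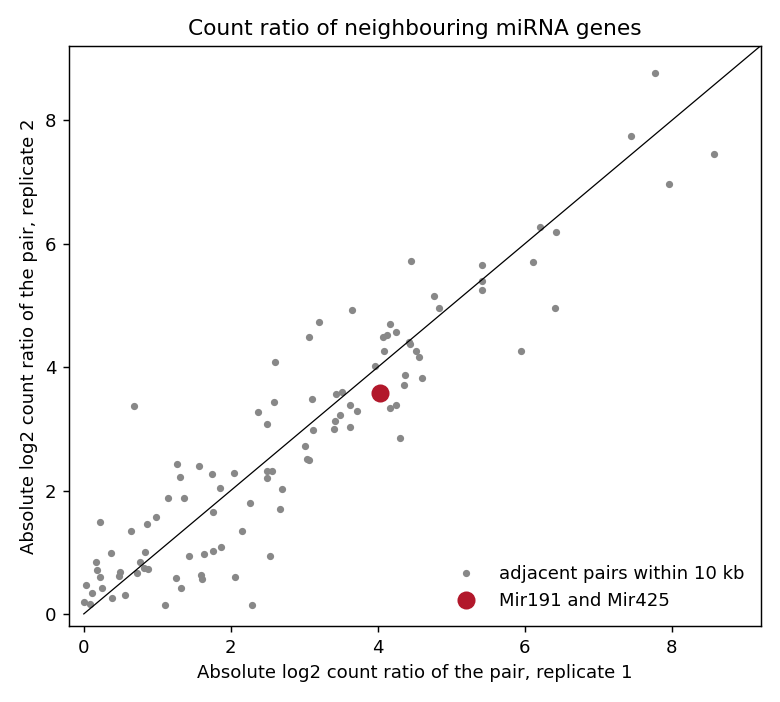
Absolute log2 count ratio of each pair of adjacent detected miRNA genes within 10 kb on 1 strand, replicate 1 on the x axis and replicate 2 on the y axis, with the line of equal values. The pair of Mir191 and Mir425 is the large point at 4.04 and 3.58, in the upper part of the cloud and below the line.

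miR-191 and miR-425 are both used as reference miRNAs, so they were set beside 21 other broadly expressed genes used or proposed for that purpose. Of these 20 were detected, with mean levels from 10.3 to 93711 CPM, and 4 of them were above Mir191. Between the libraries the intervals left out 1 for 19 of the 20, of which 9 were higher and 10 lower in replicate 2. The share was 64.3% of all detected genes and 81.1% of the 222 with at least 100 counts in both libraries. Of the 20, only Mir103-2, with 22 and 84 counts, was below that minimum. The median absolute log2 ratio of the list was 0.51, against 0.45 for all detected genes. With assigned totals none of the 20 was more even than Mir191, and 10 were more even than Mir425. Mirlet7g was more even than Mir191 with TMM factors, and Mir30e was without Mir378a in the total. Mir30e and Mirlet7i were with DESeq2 size factors from all genes, which left the counts unscaled. The list includes 7 detected genes that share 20 bases with another locus, and the median over the other 13 was 0.25.

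Single genes of that list spanned a wide range. Mirlet7g, the most even of the list, was at 64250 CPM in the first library and 66126 CPM in the other, with a log2 ratio of 0.04. Mirlet7i, the highest of the list, was at 99266 CPM and 88157 CPM. Mir23a was at 50994 CPM and 30701 CPM, but it is among the genes with a shared run. Mir107, which lies in a pantothenate kinase gene and also has a shared run, was the least even, at 385 CPM and 1523 CPM, a log2 ratio of 1.99. Mir425, at 0.49, was on the higher side with Mir107, and its ratio was smaller than that of Mir107.

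**Figure D5:**
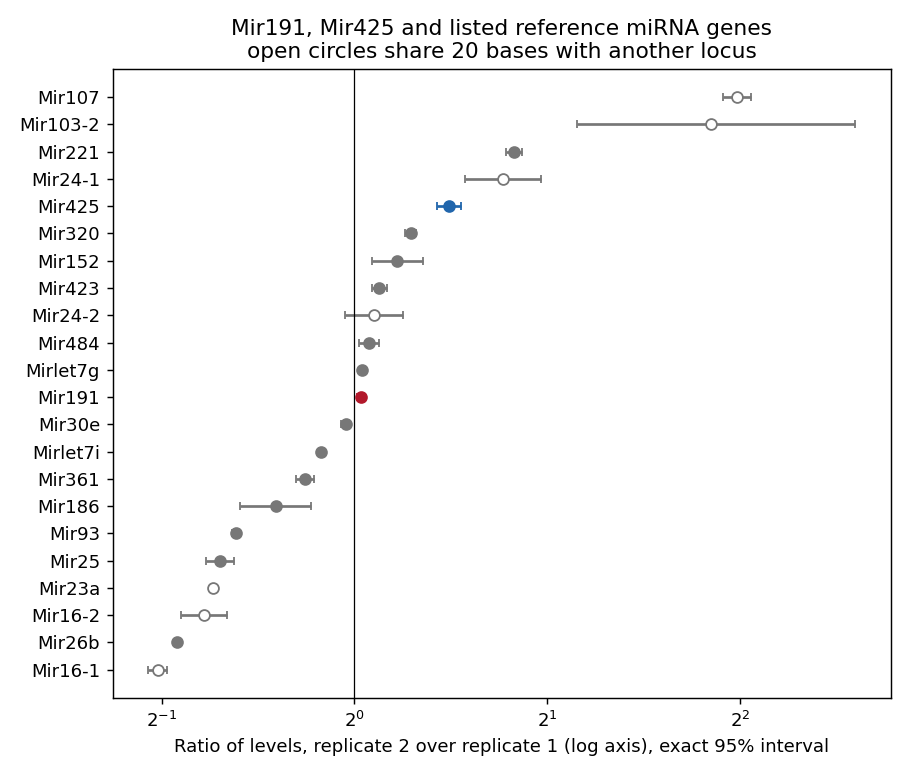
Ratio of levels of replicate 2 over replicate 1 (log axis) for Mir191, Mir425 and the 20 detected genes of the reference list, with exact 95% intervals, open circles for genes that share 20 bases with another locus, and a line at 1. Mir191 at 1.02 lies next to the line, and Mir425 at 1.41 lies to its right, with Mir107 at the far end.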

How the data were processed

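Small-RNA libraries of 2 mouse hearts were analysed from the authors' deposited read counts per miRNA gene, which are whole numbers in 3 columns: unstranded, own strand and opposite strand. Assembly mm10 and annotation GENCODE M21 are named in the text deposited beside the counts. Which aligner and counter were used is not given in the sources used for this work. That build is C57BL/6J sequence, also for reads from CAST alleles. Rows for unmapped, multimapping, outside-gene and ambiguous reads (62.7% and 63.6% of reads on the own strand) were left out of totals.

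All 2202 gene identifiers matched GENCODE M21. Own-strand counts were scaled to 1000000 assigned reads (CPM), and log2 levels used a pseudocount of 0.5 counts. Ratios between libraries have exact conditional binomial intervals and shares exact Clopper-Pearson intervals at 95%. No p-value was computed for the genes, because edgeR's quasi-likelihood test has no contrast in 1 group. Limits for 0 counts are 3 counts. Intervals and limits cover counting error only, and no molecular identifiers are named in the labels. Hairpin folds came from RNAfold 2.7.2, TMM factors from edgeR 4.0.16 and size factors from DESeq2 1.42.0, with scipy 1.17.1. The interval calculation was tested on simulated counts with counting error only, so that test does not cover the spread between libraries. Mature and hairpin sequences are from RefSeq, and both hairpins matched the GENCODE transcripts.

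Mir191, Mir425, the lists and the settings were chosen with earlier results of these data known. Further genes were named by rule: genes overlapping the pair, the 3 nearest by level over both libraries, the next above and below in rank, the 3 highest, the most and the least even of the reference list, the red blood cell genes, the 3 pairs of nearest spacing, and genes with a shared seed. Alternatives changed the scaling, the denominator, the strand column, the count minimum and the spacing of pairs, and left out each library in turn.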

Additional observations from a re-analysis of the deposited data

How the results depend on the processing

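Some changes of denominator or column moved the levels by more than the spread between the libraries. Per 1000000 of all reads, the mean was 4153 for Mir191 and 300.2 for Mir425. Without Mir378a in the total, Mir191 was at 13612 CPM. In the unstranded column Mir191 was at 0 CPM (rank 729), the ratio of Mir191 to Mir425 was 0, no ratio between libraries could be formed for Mir191, and Mir425 was at 1124 CPM (rank 71). Among genes with no shared run of 20 bases, Mir191 ranked 13th and Mir425 64th. Leaving out 1 library in turn gave Mir191 levels of 11138 to 11393 CPM and ranks of 16 to 17. The ratio of Mir191 between the libraries turned below 1 with TMM factors (0.990) and per all reads (0.998). It stayed above 1 with an interval that held 1 without Mir451a and Mir144 (1.00) and with DESeq2 size factors from detected genes only (1.01), a setting chosen after seeing the data. DESeq2 size factors from all genes were 1 in both libraries, so 1.08 for Mir191 is the ratio of its unscaled counts. With these factors the median log2 ratio of detected genes was 0.11, against 0.02 with assigned totals. The share of other neighbouring pairs with a smaller difference than Mir191 and Mir425, 69.6%, was 61.0% with a minimum of 1 count, 75% with 100 counts, 75% without genes with shared runs, and 61.0% without chromosome 12, also chosen after seeing the data. Genes whose ratio interval left out 1 numbered 229 of 356, and 251 of 594 and 180 of 222 with minimums of 1 and 100 counts. For the other changes of the ratio and for the pairs, the cause was not tested. Over all alternatives, 37 values kept their direction and moved little, 15 moved by more, 2 became weaker and 2 reversed. Moving little means within the spread, on their side of the limit or, for counts, by less than 1.5 times. The unit of depth, 0.203 and 0.191 CPM per count, limits neither gene's level. With 2 libraries the spread between animals is known poorly, and with 1 donor identifier it may not have been measured at all.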
